A study of Mus musculus with 4 samples.

Results

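Regeneration-associated genes are genes that axotomized neurons switch on when they attempt to regrow. The 10 described here were chosen by name and are written in the deposited values as ATF3, JUN, SOX11, SPRR1A, GAP43, KLF6, SOCS3, BASP1, STAT3 and GAL; their mouse symbols are used below. They were 10 of 14717 genes listed in all. All 10 were among the 14123 genes listed at 7 days post injury (dpi), and 9 were among the 11470 listed at 21 dpi, where Socs3 was not listed.

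RNA-seq was done on spinal cord segments of about 4 mm that held the lesion, from male mice given a 50 kdyne contusion at vertebral level T9 when 3 to 5 months old. The 4 groups were human ApoE3 targeted replacement mice at 7 dpi and at 21 dpi and human ApoE4 targeted replacement mice at 7 dpi and at 21 dpi, with 3 mice per genotype and time point. In all of them a human ApoE isoform replaces mouse Apoe, so no group had the mouse protein, and no sham or uninjured segment was analysed here. The values therefore compare injured cords with each other and do not measure induction by injury. The measure is FPKM, the fragments of a transcript per unit of its length and of sequencing depth, and 1 pooled value was deposited per gene and group. With no value for single mice, no spread, test or replicate check could be computed here for any difference below. The authors reduced all libraries to an equal number of reads, but how many of these lie behind the value of a gene is unknown.

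A ratio here is log2((FPKM + 1)/(FPKM + 1)), a scale on which changes at low levels look smaller than they are, and every fold given is likewise of FPKM + 1. A gene was counted as past 1.3-fold when this ratio was at least 0.38 in size. The first value column was read as ApoE3 and the second as ApoE4, because each row names its comparison as ApoE3 versus ApoE4. The numbering of the sample columns in the same rows is the other way round. Read by that numbering, ApoE3 and ApoE4 would be exchanged in every sentence below, and every genotype direction would be reversed.

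In the classical account, Atf3, Jun, Sox11, Klf6 and Stat3 are transcription factors that start the growth program in injured sensory and motor neurons. Their activity is followed by growth cone and stress proteins such as Gap43, Basp1 and Sprr1a and by neuropeptides such as galanin, the product of Gal. Stat3 is activated by cytokines that signal through the gp130 receptor, and Socs3 is the feedback inhibitor that switches this signal off and limits axon regrowth. Several of these genes are not specific to neurons: Stat3 acts in reactive astrocytes, and Atf3, Jun, Klf6 and Socs3 are also made by activated leukocytes and glia. In these bulk segments, fewer cells of a type and less RNA per cell cannot be told apart.

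The levels of the members, which FPKM puts on a scale per length, covered most of the range of listed genes. Stat3 was the member with the highest level in 3 groups, with 205 FPKM (ApoE3) and 198 FPKM (ApoE4) at 7 dpi and 138 FPKM (ApoE3) at 21 dpi. In ApoE4 at 21 dpi Gap43 was higher, at 236 FPKM against 178 for Stat3. Sox11 had the lowest level in every group, between 1.21 and 2.23 FPKM, and lay above only 3.28% to 4.32% of listed genes. Gap43, Sprr1a and Basp1 were above 70.1% to 86.8% of listed genes in all 4 groups. Jun, Gal, Atf3 and Socs3 lay near the middle of the list at 7 dpi, where the median gene had 33.0 FPKM in both genotypes. At 21 dpi Atf3 had dropped to a place above 28.4% of genes in ApoE3, with 15.3 FPKM in ApoE4 beside a median of 36.8 FPKM. Neighbours in this order, such as Jun and Socs3 with 48.3 and 48.2 FPKM in ApoE4 at 7 dpi, cannot be said to differ, since no spread is known.

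**Figure D1:**
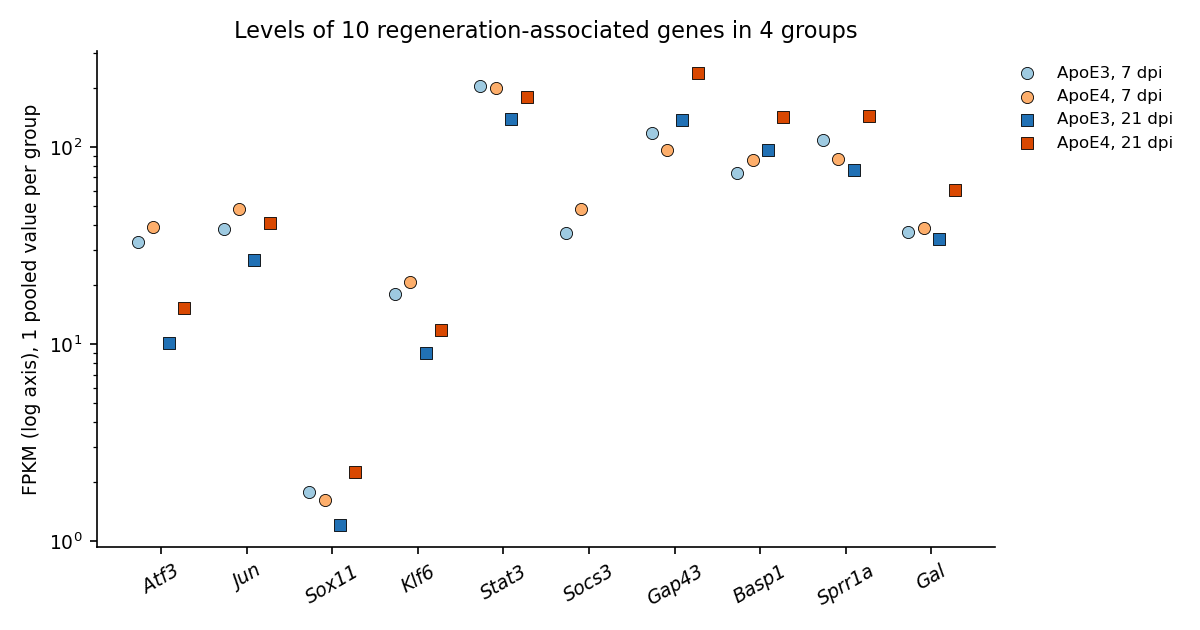
Levels of the 10 genes as FPKM on a log axis, with 1 point per group: blue for ApoE3, orange for ApoE4, circles for 7 dpi and squares for 21 dpi. Stat3, Gap43, Sprr1a and Basp1 lie highest, Sox11 lies lowest at 1.21 to 2.23 FPKM, and Socs3 has points at 7 dpi only.

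The question behind the comparison of genotypes is whether the injured cord differs between the human isoforms before and after recovery of function is under way. At 7 dpi the genotypes were close for these genes. Of the 10 members, 1 was past 1.3-fold and lower in ApoE3, and 0 were past it and higher. Among all 14123 genes, 4.76% were past 1.3-fold and lower in ApoE3 and 3.78% were past it and higher, so the members' count was near the background. The median ratio of the 10 members was -0.12, beside 0.00 for genes with a mean of at least 1 FPKM. Ratios ran from -0.38 for Socs3 to 0.32 for Sprr1a, and 9 of the 10 lay within the middle 90% of genes, which reached from -0.37 to 0.34.

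The member past 1.3-fold at 7 dpi was Socs3, the inhibitor of gp130 and Stat3 signalling. Its level was 36.8 FPKM with ApoE3 and 48.2 with ApoE4, a ratio of -0.38 that is only just past the threshold. Stat3 itself had 205 and 198 FPKM in the same order, a ratio of 0.05.

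The other transcription factors were within 1.3-fold at 7 dpi. Atf3, a stress-induced factor of the ATF family, had 32.9 FPKM with ApoE3 and 39.0 with ApoE4, a ratio of -0.24. Jun, its AP-1 partner, had 38.3 and 48.3 FPKM, and its ratio of -0.33 had 6.57% of all genes below it. Klf6, a zinc finger factor of the KLF family, had 18.0 and 20.5 FPKM and a ratio of -0.18. All 3 had their lower value in ApoE3, whereas Sox11, a SoxC factor of developing neurons, had 1.79 and 1.61 FPKM and a ratio of 0.09.

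The growth cone proteins did not share a direction at 7 dpi. Gap43, the growth-associated protein of the axon terminal membrane, had 117 FPKM with ApoE3 and 96.3 with ApoE4, a ratio of 0.28. Basp1, a related membrane protein that binds calmodulin and phosphoinositides, had 74.0 and 86.2 FPKM, a ratio of -0.22. Sprr1a, a small proline-rich protein that promotes axon outgrowth, stood with Gap43, at 109 and 87.2 FPKM. Its ratio of 0.32 had 5.88% of all genes above it. Gal had 37.1 FPKM with ApoE3 and 38.7 with ApoE4, a ratio of -0.06.

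At 21 dpi every listed member had its lower value in ApoE3. Of the 9 members, 7 were past 1.3-fold and lower in ApoE3 and 0 were past it and higher. This was the direction of nearly the whole list: of 11470 genes, 58.9% were past 1.3-fold and lower in ApoE3 and 2.01% were past it and higher, and 93.8% had a ratio below 0. The median ratio of genes with a mean of at least 1 FPKM was -0.42, beside -0.56 for the 9 members. After that shift was subtracted, 2 of the 9 members were past 1.3-fold and lower in ApoE3 and 0 were past it and higher, beside 8.06% and 7.46% of all genes. The centred median of the members was -0.14. All 9 ratios lay within the middle 90% of genes, from -0.92 to 0.05.

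Sprr1a had the lowest ratio at 21 dpi. Its level was 76.2 FPKM with ApoE3 and 143 with ApoE4, 1.87-fold higher in ApoE4, with a ratio of -0.90 and a centred ratio of -0.48. Of all genes, 5.31% had a lower ratio. Gal, with 34.3 and 60.8 FPKM, followed with a ratio of -0.81 and a centred ratio of -0.38, just past the threshold.

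Gap43 had 136 FPKM with ApoE3 and 236 with ApoE4 at 21 dpi, a ratio of -0.79, and its centred ratio of -0.37 was just short of 1.3-fold. Basp1 had 96.2 and 142 FPKM, a ratio of -0.56, and a centred ratio of -0.14. These proteins of the growth cone thus had the same direction at 21 dpi, by unequal amounts relative to all genes.

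The transcription factors at 21 dpi lay close to the shift of all genes. Jun had 26.6 FPKM with ApoE3 and 41.1 with ApoE4, a ratio of -0.61 and a centred ratio of -0.19. Atf3 had 10.2 and 15.3 FPKM, with a ratio of -0.55 that became -0.12 when centred. Sox11 had 1.21 and 2.23 FPKM, with a ratio of -0.54 that became -0.12. The signs of the other factors turned with the centring. Klf6, at 8.98 and 11.8 FPKM, went from -0.36 to 0.06. Stat3, at 138 and 178 FPKM, went from -0.37 to 0.05, and neither value was past 1.3-fold.

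**Figure D2:**
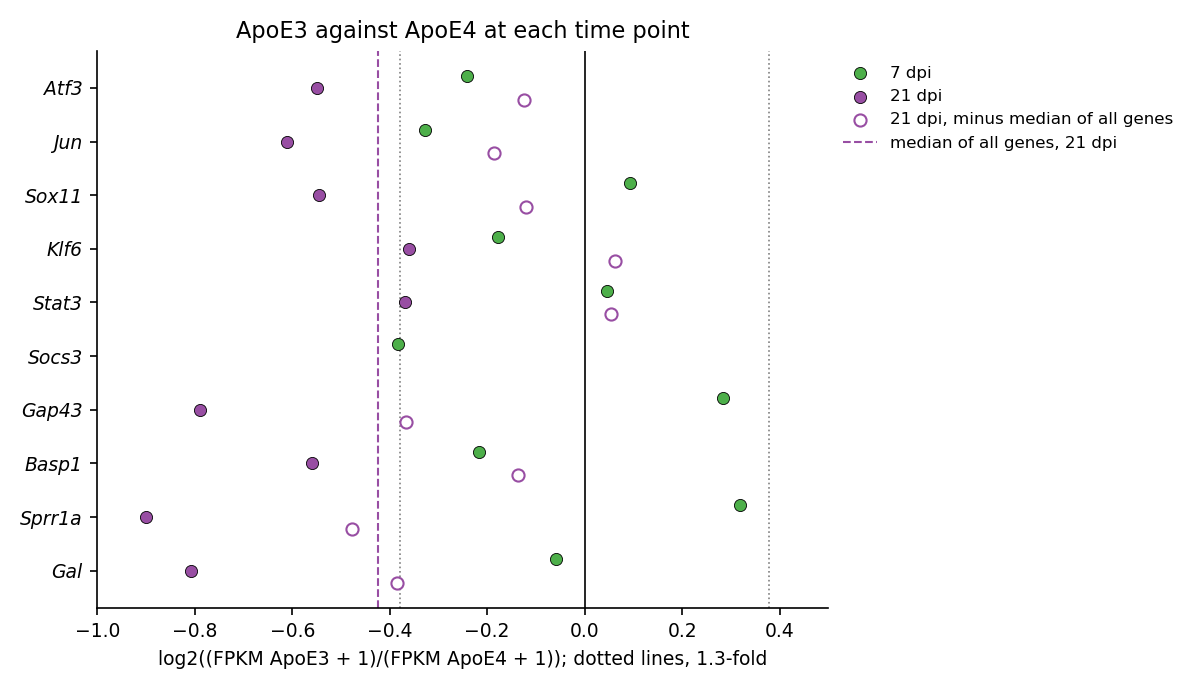
Ratio of ApoE3 to ApoE4 for each gene on the log2 scale: green points for 7 dpi, filled purple points for 21 dpi and open purple points for 21 dpi after the median of all genes, -0.42 (dashed line), was subtracted. Dotted lines mark 1.3-fold; all 9 filled purple points lie left of 0, and of the open points those of Sprr1a at -0.48 and Gal at -0.38 lie past the left dotted line.

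The genotype ratios of some members differed between the time points by more than the shift of all genes. For Sprr1a the ratio at 21 dpi minus that at 7 dpi was -1.22, and -0.79 after centring at each time point. For Gap43 the difference was -1.07, and -0.65 after centring. In 2.38% of the 10876 genes listed at both time points the difference was lower than that of Sprr1a, and in 3.88% it was lower than that of Gap43. Gal had a centred difference of -0.32, Sox11 of -0.21 and Stat3 of 0.01. In Basp1, Atf3, Jun and Klf6 it was above 0, from 0.08 in Basp1 to 0.24 in Klf6. None of these differences was tested.

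A comparison of 21 with 7 dpi within a genotype crosses the tables of the time points. Whether these were normalized together is not given in the sources used here, and these comparisons share their samples with those of the genotypes. In ApoE3, 5 of the 9 members fell past 1.3-fold and 0 rose, beside 23.6% of 10876 genes that fell and 31.3% that rose. The median ratio was -0.51 for the members and 0.09 for genes with a mean of at least 1 FPKM. After this shift was subtracted, 6 members fell and 0 rose in ApoE3, beside 27.7% and 26.6% of genes, with a centred median of -0.60. In ApoE4, 2 of the 9 members fell past 1.3-fold and 4 rose, beside 10.9% of genes that fell and 59.0% that rose. Here the median was 0.31 for the members and 0.53 for all genes. After the shift of 0.53 was subtracted, 4 members fell and 1 rose in ApoE4, beside 28.6% and 26.1% of genes, and the members' centred median was -0.22.

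Atf3 fell in both genotypes, before and after centring, and was the member with the lowest ratio in each. It went from 32.9 to 10.2 FPKM in ApoE3, and from 39.0 to 15.3 FPKM in ApoE4. In FPKM + 1 it was 3.03-fold lower at 21 dpi in ApoE3 and 2.45-fold lower in ApoE4. Only 2.62% of genes in ApoE3 and 2.61% in ApoE4 had a lower ratio. It was the sole member outside the middle 90% of genes in either genotype.

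Klf6 also fell in both genotypes, from 18.0 to 8.98 FPKM in ApoE3 and from 20.5 to 11.8 FPKM in ApoE4, with ratios of -0.93 and -0.75. For Stat3 and Jun the call depended on the centring in ApoE4. Stat3 went from 205 to 138 FPKM in ApoE3, a ratio of -0.57, and from 198 to 178 FPKM in ApoE4, where the ratio was -0.15 and the centred ratio -0.68. Jun went from 38.3 to 26.6 FPKM in ApoE3, a ratio of -0.51, and from 48.3 to 41.1 FPKM in ApoE4, where the ratio was -0.23 and the centred ratio -0.75. Sox11 had a ratio of -0.33 in ApoE3 and 0.31 in ApoE4, neither past 1.3-fold. When centred these became -0.42, which is past it, and -0.22.

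Gap43 and Basp1 had their higher values at 21 dpi in both genotypes, past 1.3-fold in ApoE4 only. Gap43 rose in ApoE4 from 96.3 to 236 FPKM, 2.44-fold higher at 21 dpi, and its centred ratio was 0.76. In ApoE3 it had 117 and 136 FPKM, a ratio of 0.21. Gap43 was the single member past 1.3-fold upward after centring, in ApoE4. Basp1 rose in ApoE4 from 86.2 to 142 FPKM, with a ratio of 0.72 and a centred ratio of 0.19. In ApoE3 it had 74.0 and 96.2 FPKM, and its ratio of 0.37 was just short of 1.3-fold.

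Sprr1a passed 1.3-fold with time in opposite directions in the genotypes and Gal passed it in ApoE4, differences that were not tested. Sprr1a fell in ApoE3 from 109 to 76.2 FPKM, a ratio of -0.51, and rose in ApoE4 from 87.2 to 143 FPKM, a ratio of 0.71. When centred, these ratios were -0.60 and 0.18, so the rise in ApoE4 was within 1.3-fold of the shift of all genes. Gal had 37.1 and 34.3 FPKM in ApoE3, a ratio of -0.11, and rose in ApoE4 from 38.7 to 60.8 FPKM, a ratio of 0.64 that became 0.11. Socs3 has no value for this comparison.

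**Figure D3:**
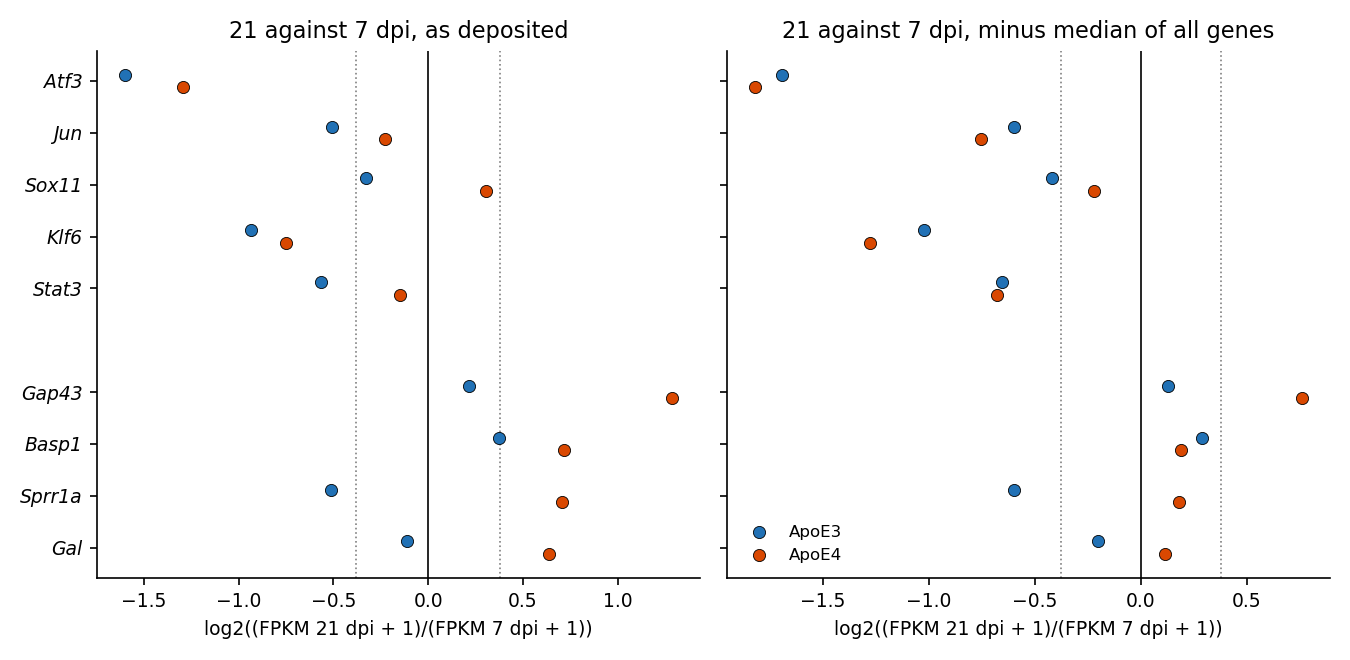
Ratio of 21 dpi to 7 dpi on the log2 scale for the 9 genes listed at both time points, in ApoE3 (blue) and ApoE4 (orange), as deposited on the left and minus the median of all genes on the right; dotted lines mark 1.3-fold. Atf3 and Klf6 lie past the left dotted line in both genotypes and both panels, and Gap43 in ApoE4 lies past the right one in both panels, at 1.29 and 0.76.

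**Figure D4:**
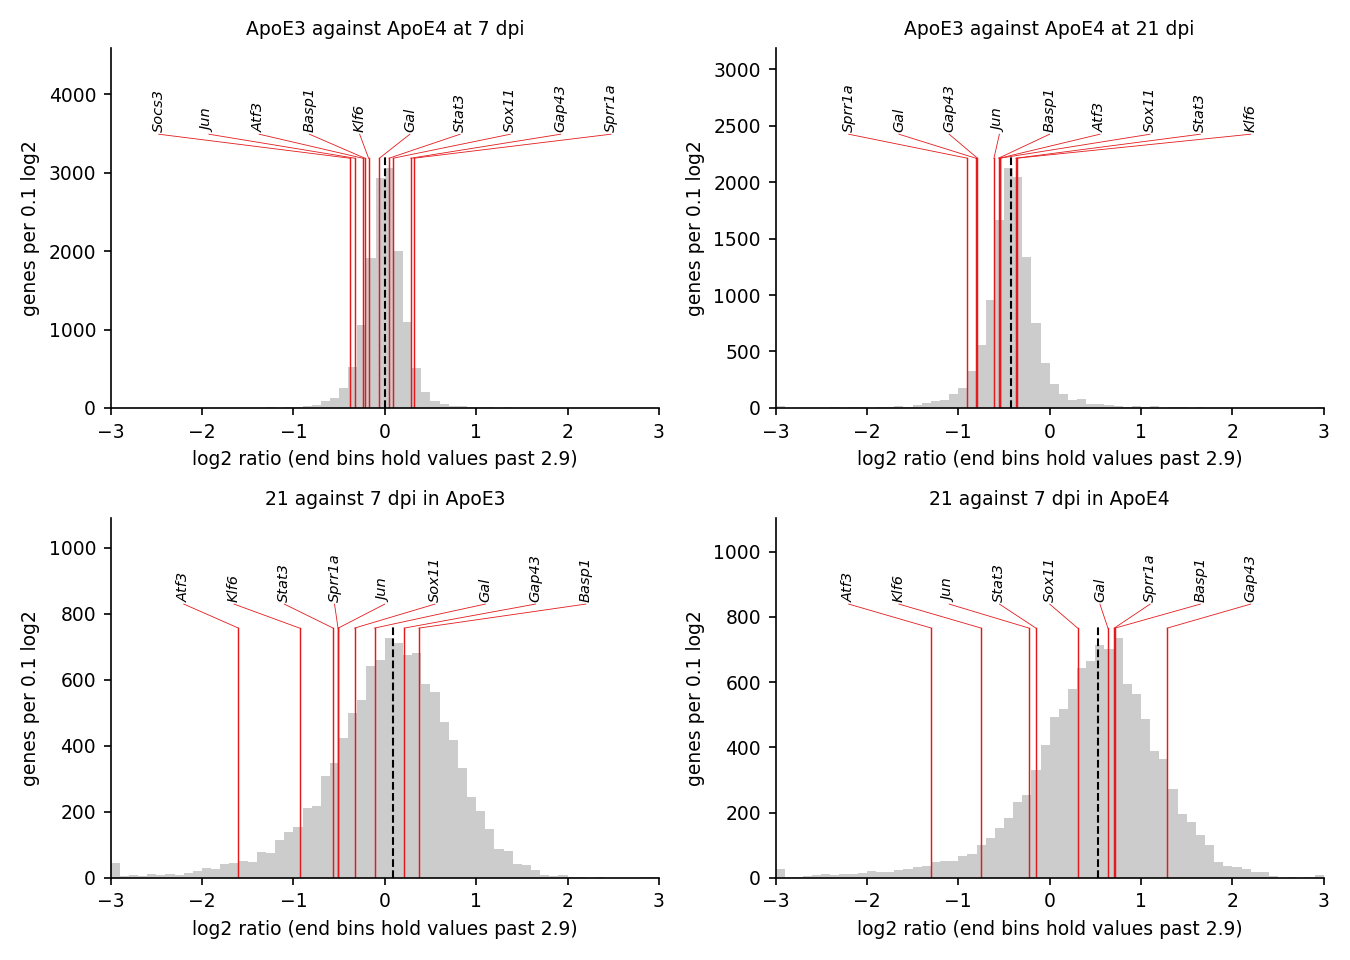
Number of genes per 0.1 log2 (grey bars) in each of the 4 comparisons, with the members as red lines and the median of genes with a mean of at least 1 FPKM as a dashed line. The members lie within the bulk of all genes except Atf3, at -1.60 in ApoE3 and -1.29 in ApoE4, and Socs3 at the edge of it at 7 dpi, at -0.38.

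Because Socs3 was past 1.3-fold at 7 dpi and Sprr1a had the lowest genotype ratio at 21 dpi, their promoters are shown. Promoter sequences came from RefSeq (GRCm38.p6), which gave 9 of the 10 members: Atf3, Basp1, Gal, Jun, Klf6, Socs3, Sox11, Sprr1a and Stat3. Windows from 250 bases before to 50 bases after the start were searched on both strands for the letters TGANTCA (AP-1, bound by Jun and Fos dimers), TGACGTCA (CRE, bound by ATF and CREB factors) and TTCNNNGAA (STAT). The 250 bases before the start are printed 5′ to 3′ on the strand that RefSeq gives for the gene, the - strand for both, with the matches in capitals. To check strand and start, bases shortly after the start were sought in GENCODE transcripts of the same gene. They were not found for Socs3, Sprr1a and Sox11, and were found for the other members searched. For the promoters printed here, strand and start therefore rest on RefSeq alone. Those of Socs3 are at chr11:117969367-117969616 and hold 1 STAT match, and those of Sprr1a are at chr3:92485882-92486131 and hold 2 AP-1 matches.
Socs3: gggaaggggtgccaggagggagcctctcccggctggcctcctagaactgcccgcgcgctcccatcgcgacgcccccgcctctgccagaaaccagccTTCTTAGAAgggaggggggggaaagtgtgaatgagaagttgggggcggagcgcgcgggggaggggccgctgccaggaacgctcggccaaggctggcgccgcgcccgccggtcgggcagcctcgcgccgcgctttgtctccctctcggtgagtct
Sprr1a: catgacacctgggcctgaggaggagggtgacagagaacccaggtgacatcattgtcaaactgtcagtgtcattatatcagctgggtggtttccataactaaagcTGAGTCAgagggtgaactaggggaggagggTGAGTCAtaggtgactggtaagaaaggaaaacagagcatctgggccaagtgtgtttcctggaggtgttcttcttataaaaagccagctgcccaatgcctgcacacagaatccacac

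The other 7 promoters held none of these letters. Of 32851 RefSeq promoter windows of the same length, 7.81% held the AP-1 letters, 1.79% the CRE letters and 8.30% the STAT letters. A match describes the letters only and shows no binding.

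Genes that act with the members were taken from 9 lists with 99 genes in all. Of these, 89 had values at 7 dpi, and 12 were past 1.3-fold and lower in ApoE3 and 3 were past it and higher, beside 4.76% and 3.78% of all genes, with a median of -0.05. The list of gp130 ligands, the cytokines that activate Stat3, had 4 of 6 listed genes past 1.3-fold and lower in ApoE3 and a median of -0.42. Clcf1 had 9.86 FPKM with ApoE3 and 19.3 with ApoE4, and Lif, leukemia inhibitory factor, had 5.95 and 10.2 FPKM. Osm, oncostatin M, had 2.75 and 3.92 FPKM. Of the 9 gp130 receptors and kinases 0 were past 1.3-fold, with a median of -0.04. Among the 7 listed Stat3 targets and brakes, Bcl3 was lower in ApoE3, with 26.0 and 34.2 FPKM, and the median was -0.09.

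Injury-induced genes of axotomized neurons outside the members had 5 of 22 listed genes past 1.3-fold and lower in ApoE3 at 7 dpi and 2 past it and higher, with a median of -0.06. Cebpd, a transcription factor of the acute phase, had 3.61 FPKM with ApoE3 and 7.40 with ApoE4, and Hspb1, a small heat shock protein, had 84.1 and 125 FPKM. Lgals1 and Tubb6 were lower in ApoE3 as well, with ratios of -0.41 each. Higher in ApoE3 were Ecel1, an endopeptidase of injured neurons, with 492 and 348 FPKM, and Adcyap1, which encodes the neuropeptide PACAP, with 212 and 161 FPKM. From the other lists, Klf2, at 4.63 and 6.98 FPKM, and the galanin receptor Galr3, at 0.77 and 1.48 FPKM, were lower in ApoE3, and Ddit3, a stress factor, was higher, at 129.7 and 93.0 FPKM. Galr1 and Galr2 were not listed. The medians were -0.12 for the 12 listed AP-1 and ATF partners and 0.01 for the 11 KLF genes. The 19 listed growth cone and neurite cytoskeleton genes had 0 past 1.3-fold and a median of 0.13, and both SoxC relatives, Sox4 and Sox12, were within 1.3-fold.

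The deposited values held 74 of the 99 genes at 21 dpi, and after centring 11 were past 1.3-fold and lower in ApoE3 and 4 were past it and higher, beside 8.06% and 7.46% of all genes, with a centred median of -0.03. Before centring these counts were 44 and 1, beside 58.9% and 2.01%, so they were near the background. The gp130 ligands were split: Ctf1 (cardiotrophin) and Osm had centred ratios of -0.59 and -0.53, and Clcf1 and Cntf, ciliary neurotrophic factor, had 0.61 and 0.57. Lifr, the receptor chain shared by several of these ligands, had 62.7 FPKM with ApoE3 and 119 with ApoE4, a centred ratio of -0.49. Of the neuropeptide genes, Vgf had 1610.0 and 3539 FPKM, a centred ratio of -0.71, and Adcyap1 and Vip had centred ratios of -0.43 and -0.39. Map1b, a microtubule protein of growing axons, had 164 and 319 FPKM, the single one of 17 cytoskeleton genes past 1.3-fold after centring, at -0.53. Also past it were Ankrd1 at -0.94, Hspb1 at -0.56, Maff at -0.43, Klf5 at 0.89 and Cdkn1a at 0.52. Ankrd1 and Klf5 had less than 2.1 FPKM in both genotypes.

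With time, the listed partners fell and rose in both directions. Of 73 genes listed at both time points, 29 fell and 17 rose past 1.3-fold in ApoE3 after centring, beside 27.7% and 26.6% of all genes. In ApoE4 30 fell and 16 rose, beside 28.6% and 26.1%. The largest falls in ApoE3 were those of Tubb6, Il6ra, Sox4 and Plaur, with centred ratios of -1.71, -1.56, -1.48 and -1.46. In ApoE4 they were those of Il6ra, Sox4, Tubb6 and Lgals1, with -1.79, -1.77, -1.76 and -1.67. Of the 7 gp130 receptors and kinases, 5 fell and 1 rose past 1.3-fold in ApoE3 after centring, with a centred median of -0.59, and 4 fell and 1 rose in ApoE4, with -0.43. Osmr had a centred ratio of -1.41 in both genotypes, and the gene that rose past 1.3-fold in both was Il11ra1, at 0.78 in ApoE3 and 0.67 in ApoE4. The largest rises in both were those of the stathmins Stmn3 and Stmn2, which regulate microtubules in neurons, with centred ratios of 1.68 and 1.61 in ApoE4, while in ApoE3 they went from 274 to 825 FPKM and from 167 to 474 FPKM. The median centred ratio of the 17 cytoskeleton genes was 0.29 in ApoE3 and 0.36 in ApoE4, and that of the 9 KLF genes was -0.18 and -0.47.

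The genes whose pattern over the 4 groups was most like that of a member were sought for the 3 members with the widest range, Atf3, Gap43 and Klf6, by the Euclidean distance of log2(FPKM + 1) minus each gene's own mean, among 10861 genes. Nearest to Atf3 were Fermt3, the kindlin of blood cells, at a distance of 0.07, Adcy7 at 0.07 and Ripk3 at 0.08. Fermt3 had 58.9, 72.3, 18.3 and 27.1 FPKM in ApoE3 and ApoE4 at 7 dpi and ApoE3 and ApoE4 at 21 dpi. Nearest to Gap43 were Tmem53, Gpc5 and Nap1l2, at 0.04, 0.05 and 0.06, and nearest to Klf6 were Ern1, Dna2 and Rilpl2, at 0.04, 0.05 and 0.06. Among the members, Jun and Stat3 were closest, at 0.31, and Atf3 and Gap43 farthest apart, at 2.24. Over only 4 values, a small distance is a description.

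Marker genes of the cord were abundant in every group. The oligodendrocyte gene Mbp had 120571 FPKM with ApoE3 and 127575 with ApoE4 at 7 dpi and 201348 and 278678 at 21 dpi. The astrocyte gene Gfap had 12395 and 12386 FPKM at 7 dpi and 8201 and 15313 at 21 dpi. Summed over genes listed at both time points, the 7 astrocyte genes gave 17578 and 17218 FPKM at 7 dpi and 10511 and 19198 at 21 dpi, and the centred median ratio of ApoE3 to ApoE4 at 21 dpi was -0.24.

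Macrophage genes and most fibroblast genes fell with time, as Atf3 and Klf6 did, and so did some genes of other cord cells. After centring, 5 of 7 astrocyte genes fell past 1.3-fold in ApoE3 and 3 in ApoE4. Of 7 oligodendrocyte precursor genes 3 and 4 fell, and 0 genes of either list rose past it. Of 5 endothelial genes 2 fell and 0 rose in each genotype. Of 3 microglia genes 2 fell and 0 rose in ApoE3, and 1 fell and 1 rose in ApoE4. Among all genes 27.7% fell in ApoE3 and 28.6% in ApoE4. Of the 8 macrophage genes, 8 were listed at 7 dpi and 5 at both time points, and all 5 fell past 1.3-fold in both genotypes. Their sum went from 5665 to 287 FPKM in ApoE3 and from 7474 to 546 in ApoE4. The most abundant, Lyz2, went from 4522 to 212 FPKM in ApoE3 and from 6076 to 426 in ApoE4, and none was listed at 0. The 6 fibroblast genes summed to 624 and 807 FPKM at 7 dpi and to 102 and 49.0 at 21 dpi. Col1a1, the most abundant at 7 dpi, went from 212 to 2.44 FPKM in ApoE3 and from 270.0 to 2.27 in ApoE4. Dcn, the most abundant in ApoE3 at 21 dpi, rose there from 45.7 to 61.9 FPKM, with a centred ratio of 0.34 that is within 1.3-fold, and fell in ApoE4 from 56.6 to 9.37 FPKM. Neutrophil genes did not share one direction: of 4 listed at both time points, 1 rose and 3 fell past 1.3-fold in ApoE3, and 2 rose and 1 fell in ApoE4. Their medians were -0.61 and 0.87, or -0.70 and 0.34 when centred. Those that rose in ApoE4 were S100a9, to 27.4 FPKM, and Lcn2, to 75.2 FPKM, while the most abundant, Csf3r, fell in both. The neutrophil sum went from 534 to 335 FPKM in ApoE3 and from 619 to 511 in ApoE4. The part of these cells in the lower Atf3 and Klf6 values at 21 dpi was not tested. At 7 dpi the medians of the macrophage and fibroblast lists, -0.34 and -0.36, were below 0, as the ratios of Socs3, Jun and Atf3 were. Of the 8 macrophage genes 6 had the lower value in ApoE3, 3 of them past 1.3-fold, and of the 6 fibroblast genes all had it, 2 of them past 1.3-fold. The neutrophil list differed by count and median only, with 3 of 5 listed genes past 1.3-fold and higher in ApoE3, 1 past it and lower, and a median of 0.53. Its most abundant gene, Csf3r, had 485 FPKM with ApoE3 and 589 with ApoE4. The sum over the 5 listed genes was 536 and 622 FPKM in the same order. The part of these lists in the ratios of the members at 7 dpi was not tested either.

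Neuron markers shared the direction of Gap43 at 7 dpi and with time in ApoE4, and differed from it in size in the other comparisons. At 7 dpi all 13 listed neuron genes had their higher value in ApoE3, 2 of them past 1.3-fold. Their median was 0.25, beside 0.28 for Gap43 and 0.32 for Sprr1a. All 5 listed motor neuron genes had their higher value in ApoE3 as well, 2 of them past 1.3-fold, with a median of 0.31. Of 5 listed sensory ganglion genes 4 had it, 2 of them past 1.3-fold, with a list median of 0.30. Prph and Isl1 are on both of these lists. At 21 dpi the median of the 11 listed neuron genes was -0.46, close to the shift of all genes. Their centred median was -0.03, beside -0.37 for Gap43. From 7 to 21 dpi the neuron sum went from 9669 to 11554 FPKM in ApoE3 and from 7539.8 to 17655 in ApoE4. The centred medians were 0.58 and 0.75, beside 0.13 and 0.76 for Gap43. The most abundant was Map2 at 7 dpi and Snap25 at 21 dpi, none was listed at 0, and Stmn2 is also on the cytoskeleton list. The part of neurons in the Gap43 and Sprr1a values was not tested. The 3 motor neuron genes listed at both time points summed to 26.4 and 19.6 FPKM at 7 dpi and 39.6 and 68.8 at 21 dpi, led by Slc18a3 at 21 dpi.

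Markers of some other tissues had unequal levels in the genotypes at 21 dpi. Schwann cell genes, markers of peripheral myelin, were higher in ApoE3: 6 of 7 listed were past 1.3-fold and the list summed to 1484 FPKM in ApoE3 and 640.1 in ApoE4. Of 10 listed sensory ganglion genes 8 were higher in ApoE3, among them the sodium channel Scn10a with 20.1 and 0.15 FPKM, and Trpv1 and Mrgprd were listed at 0 in ApoE4. The sum of this list was 897 FPKM with ApoE3 and 1039.6 with ApoE4, led in both by Calca, which spinal neurons also make. Axotomized sensory ganglion neurons are a classical site of Atf3, Jun, Gap43, Sprr1a and Gal, and injured Schwann cells make Atf3 and Jun. The part of ganglion neurons and Schwann cells in the values of these members was not tested.

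Muscle and liver genes had the opposite distribution. All 6 listed skeletal muscle genes were lower in ApoE3 at 21 dpi, with sums of 27.6 FPKM in ApoE3 and 675 in ApoE4. The most abundant, Tnnt3, had 22.5 and 515 FPKM, and Myh4 was listed at 0 in ApoE3. The 6 liver genes, none of which was listed at 7 dpi, summed to 10.5 and 114 FPKM, led by Apoa2. Sprr1a is also a protein of the cornified layer of skin. Of 8 epidermis genes 4 were listed at 21 dpi, and the 3 listed at both time points summed to 24.6 and 32.9 FPKM, led by Krt10 with 14.8 and 17.8 FPKM, and the keratins Krt5 and Krt14 of the basal layer were not listed at either time point. The other listed gene, Sprr1b, a relative of Sprr1a, had 0.46 FPKM with ApoE3 and 2.47 with ApoE4 at 21 dpi, a ratio of -1.25 and a centred ratio of -0.82. The part of any of these tissues in the ratios of the members at 21 dpi was not tested.

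The remaining marker lists were nearer to the shift of all genes at 21 dpi, with centred median ratios of ApoE3 to ApoE4 of -0.12 for oligodendrocytes, -0.05 for their precursors, -0.24 for microglia, -0.20 for macrophages, -0.35 for neutrophils and 0.08 for endothelial cells. For ependymal genes it was 0.79, with a sum of 122 FPKM in ApoE3 and 109 in ApoE4, and for fibroblast genes 0.74.

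**Figure D5:**
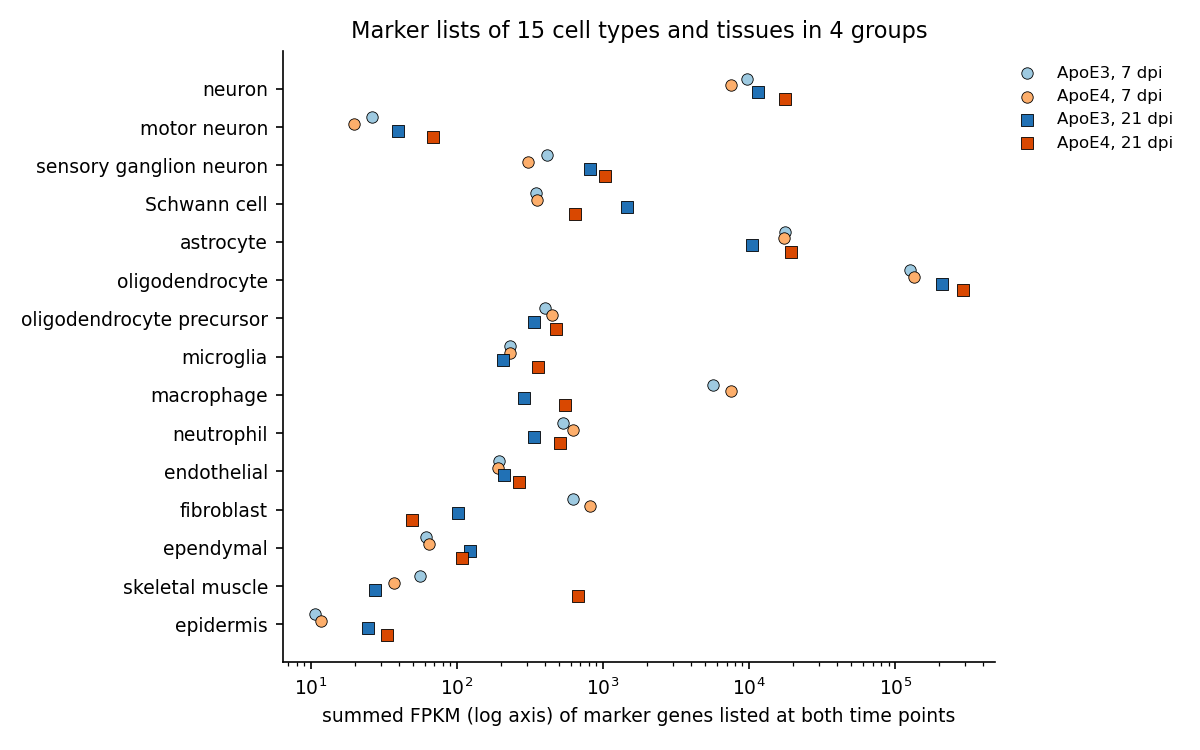
Summed FPKM, on a log axis, of the marker genes of 15 cell types and tissues that were listed at both time points, with 1 point per group in the colours and shapes used for the members' levels. Macrophage and fibroblast sums are lower at 21 dpi than at 7 dpi in both genotypes, and at 21 dpi the Schwann cell sum is higher in ApoE3 and the skeletal muscle sum, 27.6 against 671 FPKM, is higher in ApoE4.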

How the data were processed

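Total RNA from the lesion segments of 3 male mice per genotype and time point was sequenced after TruSeq library preparation, and the submitters' processing notes name STAR 2.5.4b, Bowtie2 2.1.10, SAMtools 0.1.7 and Cuffdiff 1.3.0. The genome build is not given in the sources used here. The authors deposited FPKM plus 1, as 1 value per gene, genotype and time point, and 1 was subtracted here. In their account, 1 replicate, whose group is not named in the text read here, aligned less well than the rest. Their columns of fold changes, p-values and q-values, and their list of differentially expressed genes, were not used. The 2 symbols on 2 rows at each time point were left out.

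Ratios used a pseudocount of 1 and no filter on low values. Centred ratios had the median of genes with a mean of at least 1 FPKM subtracted. The members and all lists were chosen with earlier results of these data known. There were 9 lists of pathway genes and 16 of cell types and tissues. Genes named were the members, pathway genes past 1.3-fold after centring (largest first), the most abundant marker of a list and any at 0, and the 3 nearest patterns. Further marker genes, such as Scn10a, Krt5, Krt14, Sprr1b, S100a9 and Lcn2, were named after their values were seen. The values of some genes on these lists are not reported here. Alternatives were pseudocounts of 0.1 and 0.01, a mean of at least 1 FPKM, centring, and folds of 1.5 and 2. Values were computed with numpy 2.4.6 and pandas 2.3.3 under Python 3.11.15, drawn with matplotlib 3.10.9, and the procedures were tried on simulated data. The changes planted there were well past 1.3-fold, with little noise, and only in genes that were not at low levels. That trial therefore checks the arithmetic and does not show how sure a call near 1.3-fold or at low levels is. No test was run, since 1 pooled value per group gives no spread.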

Additional observations from a re-analysis of the deposited data

Results flagged for a closer look

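For 3 genes the ratio of ApoE3 to ApoE4 had opposite signs at 7 and 21 dpi, both as deposited and after centring. Sprr1a went from 0.32 to -0.90, a difference of -1.22, and its centred ratios were 0.32 and -0.48. Gap43 went from 0.28 to -0.79, a difference of -1.07, with centred ratios of 0.28 and -0.37. Sox11 went from 0.09 to -0.54, a difference of -0.64, with centred ratios of 0.09 and -0.12, at levels of at most 2.23 FPKM. With 1 pooled value per group, these differences were not tested.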

How the results depend on the processing

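Subtracting the median of all genes took the members past 1.3-fold between the genotypes at 21 dpi from 7 to 2 and their median ratio from -0.56 to -0.14; the cause was not tested. Of the 37 single ratios, 26 kept their side of 1.3-fold under centring, 8 no longer passed it and 3 newly did. With a pseudocount of 0.1 or of 0.01, 33 of 37 kept their side and 4 newly passed, which were Klf6 at 21 dpi, Basp1 with time in ApoE3 and Sox11 with time in both genotypes. These pseudocounts moved the median of the members with time in ApoE4 from 0.31 to 0.44 and 0.47, which are the values of Sox11. A mean of at least 1 FPKM removed no member and changed no count. No ratio past 1.3-fold changed its sign under any of these alternatives.

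A fold of 1.5 in place of 1.3 left 0 members between the genotypes at 7 dpi, 4 at 21 dpi, 2 with time in ApoE3 and all 6 with time in ApoE4. A fold of 2 left 0, 0, 1 and 2 in the same order; a stricter fold cannot add genes. No paired analysis was possible because each group has 1 pooled value. The number of reads behind the value of each gene is unknown, so counting error cannot be given.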
